A study of Mus musculus with 25 samples.

Results

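In the lung of a mouse with induced SP-C injury, 22 of the 1627 probes that could be chosen, from a whole-transcriptome panel of 20175, were lower than in a control lung by at least 0.3 log2 units in all 4 places where they were pooled, which were CD68+ macrophages and non-immune tissue beside the injury and inside it. The members were found by their measured values. Counts were pooled by cell compartment and region class and written as log2(CPM + 20), where CPM is the count of a probe scaled to the total of its segment or pool, and a probe had to have at least 60 counts over all CD68 segments and to differ by no more than 0.7 log2 units between the compartments, which 1627 probes did (called candidates below). For each candidate the smallest of 4 differences was taken, which are healthy minus peri-injured and healthy minus injured in each compartment. At most 60 probes with the largest smallest difference, of at least 0.3, were to be kept, and only 22 reached 0.3, while 116 candidates had all 4 differences above 0.

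SP-C is a surfactant protein made by alveolar type 2 cells, the epithelial cells that produce surfactant and renew the alveolar lining. The I73T mutant of its proprotein is misrouted and toxic to these cells, and its induction is followed by inflammation and remodeling of the alveoli. Macrophages of the airspace and the interstitium take up surfactant and debris in the healthy lung, and monocyte-derived macrophages join them after injury. CD68 is a lysosomal protein of macrophages, and CD45 marks all leukocytes.

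The samples were 24 segments from 12 alveolar regions of formalin-fixed lung sections of male mice with the genotype SP-CI73T mutant. The 3 healthy regions came from 1 control mouse, labelled untreated and day 0 (the series' description has controls given oil), and the other 9, of which 4 were peri-injured and 5 injured, from 1 tamoxifen-treated mouse at day 14, so that regions of a class are technical replicates. Tamoxifen acts through a Flp recombinase that removes a neomycin cassette from the surfactant gene, and the labels give it as a single gavage of 175 mg per kg in corn oil, whereas the study's methods describe another schedule. Regions were chosen by histology, and each gave a segment of CD45+CD68+ cells and a segment of DNA-positive area without CD45, called non-immune here. The labels give region 4 as injured, but the segment annotation of the study lists it with the treatment of the injured and the tissue number of the control lung, and which mouse it came from was not tested. Without region 4 all 4 differences of the 22 probes stayed above 0 (the lowest at 0.297), and the rule chose 16 probes, of which 15 were members.

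No p-value over regions speaks for animals, and a difference between healthy and injured lung cannot be told apart from a difference between these 2 mice. Within a segment, fewer cells of a type and less RNA per cell cannot be told apart either. The sources used here pair no probe with a gene, so the probes are named by identifier, and the cell types of the segments could not be checked against markers. CD68 segments held between 21955 and 119493 counts and non-immune segments between 80259 and 671249. The shallowest segment was that of CD68 cells in peri-injured region 9, where 1 count corresponded to 45.5 CPM.

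The 22 probes together held a small share of all counts, which was highest in healthy tissue. In CD68 segments the share was 0.433%, 0.425% and 0.476% in healthy regions 1, 3 and 13, with a mean of 0.445% ± 0.0273 (SD, n = 3 regions). It was 0.236%, 0.251%, 0.178% and 0.2998% in peri-injured regions 6, 9, 10 and 12 (0.241% ± 0.0503, n = 4), and 0.153%, 0.1699%, 0.1605%, 0.167% and 0.1604% in injured regions 4, 5, 7, 8 and 11 (0.162% ± 0.00674, n = 5). The 3 classes did not overlap. With regions in the same order, as in all lists below, the non-immune shares were 0.613%, 0.5395% and 0.546% in healthy (0.566% ± 0.0406), 0.343%, 0.254%, 0.201% and 0.267% in peri-injured (0.266% ± 0.0585) and 0.2005%, 0.281%, 0.274%, 0.193% and 0.2801% in injured regions (0.246% ± 0.0448). Here the healthy segments stood above all others, and the classes of the injured lung overlapped. Since the probes were chosen for the difference from healthy tissue, it is a description and was not tested.

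Over the 22 probes the median difference from healthy was 0.81 log2 units in peri-injured and 1.14 in injured CD68 segments, and 0.89 in peri-injured and 0.86 in injured non-immune segments. Over the 1627 candidates the same medians were -0.16, 0.11, -0.15 and 0.00. The smallest of the 4 was the healthy against peri-injured difference in CD68 cells in 13 of the 22 probes. It was the healthy against injured CD68 difference in 1 probe, and a non-immune difference in the other 8, with 5 against peri-injured and 3 against injured tissue. Taken by compartment, 151 candidates reached 0.3 in both CD68 differences and 64 in both non-immune ones. In the opposite direction, 36 candidates were higher in the injured lung by at least 0.3 in all 4 differences.

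By the smallest difference, the probes ran from RTS0064054 at 1.30 and RTS0063348 at 1.27 through RTS0074535 at 0.99, RTS0068234 at 0.94, RTS0063316 at 0.81, RTS0070338 at 0.73 and RTS0065962 at 0.71. RTS0068243 and RTS0066214 followed at 0.64, RTS0070809 at 0.62, RTS0075548 at 0.50 and RTS0070822 at 0.48. The other 10 probes lay between 0.30 and 0.47, close to the threshold: RTS0071348, RTS0065321, RTS0072005, RTS0067093, RTS0077174, RTS0065599, RTS0071780, RTS0066522, RTS0076243 and RTS0074538. The last members inside were RTS0076243 at 0.31 and RTS0074538 at 0.303, and the first candidates outside were RTS0066328 at 0.298 and RTS0062269 at 0.295. RTS0066328 had no overlap between healthy and injured lung in either compartment, whereas both of the last members overlapped in both compartments. Values just inside and just outside the threshold were thus nearly equal.

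RTS0063348 showed the largest ratio between conditions. In non-immune tissue it read 509, 422 and 436 CPM in healthy regions 1, 3 and 13. It read 43.0, 53.6, 31.3 and 54.7 in peri-injured regions 6, 9, 10 and 12, and 124, 82.8, 188, 84.7 and 189 in injured regions 4, 5, 7, 8 and 11. The 3 classes did not overlap, with healthy tissue highest and peri-injured tissue lowest, and the pooled healthy level was 11.0 times the peri-injured and 3.34 times the injured level. In CD68 segments, with regions in the same order, it read 206, 214 and 251 in healthy, 74.8, 91.1, 78.2 and 90.9 in peri-injured and 13.5, 58.6, 67.4, 83.6 and 119 in injured regions. There the healthy segments again stood above all others, while peri-injured and injured segments overlapped.

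RTS0064054 had the highest pooled level of the members in healthy non-immune tissue, with 588, 417 and 411 CPM in its segments. This order rested on region 1, since RTS0063348 was higher in regions 3 and 13 and RTS0068234 was in region 3. The peri-injured segments held 145, 92.9, 65.5 and 64.6 and the injured ones 80.6, 203, 231, 93.2 and 275, all below the healthy ones. In CD68 segments it read 596, 178 and 195 in healthy, 118, 91.1, 44.7 and 60.6 in peri-injured and 81.0, 58.6, 27.0, 97.5 and 119 in injured regions. The classes of the injured lung overlapped here and stayed below healthy, but healthy region 1 alone gave 60.5% of the healthy CD68 counts of this probe, the largest share of a single segment among the 22.

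RTS0068234 and RTS0070338 kept the healthy segments apart in both compartments as well. In CD68 segments RTS0068234 read 275, 374 and 306 in healthy, 171, 273, 89.4 and 242 in peri-injured and 67.5, 75.3, 121, 55.7 and 59.4 in injured regions. The gap was narrow, since peri-injured region 9, with its few counts, nearly reached the lowest healthy segment. In non-immune segments RTS0068234 read 348, 478 and 386 in healthy, 258, 200.001, 139 and 243 in peri-injured and 165, 197, 211, 93.2 and 197 in injured regions, and the last 2 classes overlapped.

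In non-immune segments RTS0070338 read 304, 269 and 262 CPM in healthy, 151, 157, 177 and 144 in peri-injured and 77.2, 48.6, 111, 78.4 and 82.3 in injured regions. The 3 classes stood apart in the order healthy, peri-injured, injured. In CD68 segments it read 252, 196 and 195 in healthy, 21.4, 91.1, 89.4 and 151 in peri-injured and 27.0, 50.2, 80.9, 27.9 and 107 in injured regions, where only the healthy segments stood apart.

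RTS0070809 and RTS0075548 were among the more abundant members. In non-immune tissue RTS0070809 read 304, 321 and 336 in healthy, 122, 154, 104 and 159 in peri-injured and 212, 203, 167, 244 and 175 in injured regions, the same order as RTS0063348 with no overlap between classes. In CD68 segments it read 206, 303 and 306 in healthy, 64.1, 182, 78.2 and 60.6 in peri-injured and 162, 151, 80.9, 69.7 and 107 in injured regions, so that peri-injured region 9 came close to the lowest healthy segment. RTS0075548 read 387, 413 and 349 in healthy, 206, 154, 150.5 and 114 in peri-injured and 83.9, 203, 132, 80.5 and 128 in injured non-immune segments. Its CD68 values were 183, 303 and 278 in healthy, 149.6, 228, 179 and 212 in peri-injured and 81.0, 176, 94.4, 111 and 143 in injured regions, with 2 peri-injured segments above the lowest healthy one.

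RTS0065962 was carried largely by 2 of the 3 healthy regions. In CD68 segments it read 275, 214 and 83.5 in healthy, 128, 91.1, 101 and 121 in peri-injured and 40.5, 117, 67.4, 55.7 and 71.3 in injured regions. Healthy region 13 lay below 5 of the 9 segments of the injured lung there. In non-immune segments the values were 407, 225 and 149.5 in healthy, 226, 107, 127 and 154 in peri-injured and 80.6, 177, 83.3, 80.5 and 150.5 in injured regions, and region 1 gave 55.0% of the healthy counts.

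Of the remaining leading members, RTS0063316 and RTS0068243 had all healthy segments above all others in both compartments, and RTS0074535 did in non-immune tissue only. RTS0063316 read 167, 181 and 249 in healthy non-immune segments against a highest value of 76.4 in the injured lung. RTS0074535 read 249.8, 249 and 224 in healthy non-immune segments, and the highest of the other 9 was 116, in peri-injured region 6. RTS0070822 had the highest pooled level in healthy CD68 segments, with 413, 267 and 557 in regions 1, 3 and 13, but 2 peri-injured segments, regions 9 and 12, held 409.9 and 515 and overlapped with them, whereas the injured segments held between 11.9 and 148. RTS0066214 was at 0 in the CD68 segment of peri-injured region 9 and at 64.1, 33.5 and 30.3 in the other peri-injured ones, against 160.4, 107 and 195 in the healthy segments. A count of 0 in region 9 allows a level of up to 137 CPM (3 counts, counting error only), which is above the lowest healthy segment.

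Among the 10 members nearest the threshold, 4 kept the healthy segments apart in a single compartment. RTS0072005 and RTS0071348 did in CD68 cells, with 183, 303 and 251 in healthy regions against at most 101 in the injured lung for the former, and 206, 142 and 223 against at most 128 for the latter. RTS0065599 and RTS0071780 did in non-immune tissue, with 416, 229 and 336 against at most 183, and 157, 161 and 224 against at most 140.04. The other 6 overlapped in both compartments. In healthy CD68 segments RTS0077174 read 115, 214 and 195, RTS0067093 read 68.8, 160.2 and 167, and RTS0074538 read 68.8, 142 and 83.5, so that a healthy segment of each lay among the values of the injured lung.

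Over all members, the 3 healthy segments lay above all 9 segments of the injured lung for 9 of 22 probes in CD68 (0.983% of candidates) and for 11 in non-immune tissue (1.84%). For 7 probes they did in both compartments (0.492%) and for 9 in neither. Against peri-injured segments alone the healthy ones stood apart for 10 members in CD68 cells (3.5% of candidates) and 13 in non-immune tissue (3.44%), and against injured segments alone for 14 (7.99%) and 16 (9.4%). These counts rest on the values that chose the probes, so nothing is read from them against the candidates. In the probes with overlap in CD68 segments, between 1 and 7 of the 9 segments of the injured lung reached the lowest healthy one, with 7 for RTS0077174 and 6 for RTS0071780.

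The minimum of 60 counts in CD68 segments shaped which probes could be members. Members had between 61 and 140 such counts, with a median of 74 against 76 over the candidates, and 16 of the 22 had fewer than 90. Without their healthy counts, 17 of the 22 would have stayed under 60, so these passed only with the counts of the class where they were high. Neither of these numbers was taken over the candidates, so nothing particular to the members is read from them. Healthy segments gave a median of 31.4% of the CD68 counts of a member (22.4% to 45.7%), against 17.0% of all CD68 counts. In single CD68 segments the median member had between 2 and 9.5 counts, so that counting error alone is large there. For RTS0064054 the pooled healthy CD68 level of 317 CPM came from 43 counts.

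Probes were also chosen anew 12 times with the same rule, each time without a region. They were then read in that region, which the choice had not used. The region was set against the pool of the other condition, which the choice had used, so the differences were not independent of it. Between 13 and 23 probes were chosen each time. In left-out healthy regions, between 73.9% and 100% of the chosen probes were higher than the pooled injured or peri-injured CD68 level, against 30.3% to 54.5% of the candidates. In non-immune tissue the shares were 78.3% to 100% against 25.0% to 53.3%. In regions 1, 3 and 13, the median difference of the chosen probes in CD68 cells was 0.91, 0.68 and 1.11 against peri-injured and 1.28, 0.96 and 1.24 against injured tissue. In non-immune tissue it was 1.14, 0.48 and 0.89 against peri-injured and 0.94, 0.74 and 1.09 against injured tissue. The smallest of these, 0.48, was that of healthy region 3.

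In left-out peri-injured regions, 88.2% to 100% of the chosen probes were below the healthy CD68 level and 83.3% to 100% below the healthy non-immune level. The candidates gave 39.9% to 51.1% and 32.4% to 37.5%. In left-out injured regions the shares were 93.8% to 100% for CD68 and 100% each time for non-immune tissue, against 57.5% to 65.9% and 40.3% to 61.9% of the candidates. In peri-injured regions 6, 9, 10 and 12 the median difference from healthy was 0.83, 0.98, 1.12 and 0.72 in CD68 cells and 0.73, 1.00, 1.28 and 0.91 in non-immune tissue. In injured regions 4, 5, 7, 8 and 11 it was 1.64, 1.44, 1.28, 1.55 and 1.23 in CD68 cells and 1.39, 0.89, 0.97, 1.60 and 0.89 in non-immune tissue. All these medians were above those of the candidates, which ran from -0.33 to 0.30. Left-out regions share their mouse with the regions that made the choice, and the pools they were set against entered it. This describes other places in the same 2 lungs and is not independent support.

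The rounds did not keep the same probes. RTS0063348, RTS0068234, RTS0070338, RTS0065962, RTS0070809 and RTS0075548 were chosen in all 12 rounds. RTS0064054, the first by size, was chosen in 10. RTS0071780, RTS0076243 and RTS0074538 were chosen in none and RTS0067093 in 1. Each of these had 61 CD68 counts, and the floor of 60 was kept in every round. Leaving out a region thus mostly took them under the floor, whatever their differences, so their absence says little about the differences. Without healthy region 3, RTS0074538 was at -0.06 in its smallest difference; for the other 21 probes and the other regions all 4 differences kept their direction.

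Next, 60 probes were chosen by the differences of a single compartment and read in the other. The choice was made among the same candidates, so the floor on CD68 counts and the limit on the difference between compartments still held. The compartments were thus not fully separated. Of the 60 probes chosen in CD68 segments, 15 were members (25.0% of the 60 and 68.2% of the 22). By the rule every member is among the 151 candidates that passed the threshold in both CD68 differences, so this overlap follows in part from the choice. In non-immune tissue, 28 of these 60 (46.7%) were higher in healthy than in both classes of the injured lung, against 18.9% of the candidates. Against peri-injured tissue alone 32 of the 60 were higher in healthy tissue (53.3%, candidates 32.3%), with a median difference of 0.02, and against injured tissue 45 were (75.0%, candidates 50.4%), with a median of 0.42.

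Of the 60 chosen in non-immune segments, 21 were members (35.0% of the 60 and 95.5% of the 22). By the rule every member is among the 64 candidates that reached 0.3 there, so this overlap was nearly fixed in advance. Of the 60, 24 (40.0%) were higher in healthy than in both other classes of CD68 segments, against 25.9% of the candidates. The median difference of the 60 in CD68 cells was -0.14 against peri-injured and 0.49 against injured regions. Both CD68 and non-immune segments of a region lie side by side in the same section and mouse.

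The levels of the members, which the floor on counts and the choice itself bear on, are given as a description. Their median pooled level was 173 CPM in healthy, 88.2 in peri-injured and 66.1 in injured CD68 segments, which placed the median member at the 98.2, 91.6 and 87.1 percentile of all probes. The median candidate was at 103, 113 and 89.7 CPM. In non-immune segments the median levels of the members were 245, 124 and 104, at the 98.9, 95.5 and 96.5 percentile, and those of the candidates 91.8, 106 and 89.7. As a measure of background, the mean level of the 2017 probes with the fewest counts in the opposite compartment was 14.4 to 18.9 CPM in healthy, 13.3 to 17.3 in peri-injured and 18.3 to 20.1 in injured CD68 segments. In non-immune segments it was 18.0 to 23.2, 14.9 to 16.7 and 18.4 to 20.1. The median member was 10.4 times this background in healthy, 6.33 times in peri-injured and 3.40 times in injured CD68 cells, and 11.9, 8.03 and 5.43 times in non-immune tissue. Background in CD68 segments was thus highest in injured regions, where the members were lowest in CD68 cells, and its part in the difference was not tested.

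Within the 0.7 log2 units that the rule allowed on either side, 18 of the 22 members were higher in non-immune than in CD68 segments. Among the 1627 candidates 671 were. This difference was a filter of the rule and rests on the values that chose the probes, so nothing is read from it. RTS0066522 leaned furthest to non-immune tissue, with a CD68 minus non-immune difference of -0.69 log2 units, and RTS0074538 furthest to CD68 cells, with 0.65. RTS0074538 and RTS0067093 also rested much on a single region, healthy region 3, which gave 57.1% of the healthy CD68 counts of the former and 57.8% of the healthy non-immune counts of the latter. Region 3 was the deepest healthy region, with 56172 CD68 and 249104 non-immune counts. Over the 22 members the median share of the largest healthy segment was 44.4% in CD68 and 46.9% in non-immune tissue.

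Peri-injured and injured regions of the same lung were then compared, a difference that the rule did not use, although the values of both classes entered the choice. In CD68 cells none of the 22 probes was called (adjusted p under 0.05 by the quasi-likelihood test of edgeR, adjusted by Benjamini-Hochberg over 6000 probes), where 4.42% of all probes were, 3.07% higher and 1.35% lower in peri-injured regions. At an unadjusted p under 0.05 there were 4 members, against 18.8% of all probes, and neither DESeq2, which gave no adjusted p for 7 members, nor limma called any. The 4 were RTS0066214, with a log2 fold change of peri-injured over injured of -1.31 (SE 0.50, adjusted p = 0.131), RTS0070822 with 1.18 (SE 0.46, adjusted p = 0.134), RTS0065321 with 1.10 (SE 0.45, adjusted p = 0.153) and RTS0068234 with 0.85 (SE 0.40, adjusted p = 0.234). In simulated counts this edgeR test recovered 6% of 2-fold and 63% of 4-fold changes in CD68 cells, against 85% and 100% in non-immune tissue. The numbers of calls in the compartments can therefore not be compared directly. The changed probes, 100 for each fold, were drawn from all 6000, so these rates are not those of the members. In the measured counts, which members passed depended on the filter on low counts. With all 20175 probes in the fit RTS0070822 and RTS0065321 were called higher in peri-injured cells, and with edgeR's own filter, which kept 16 members, RTS0066214 and RTS0070809 were called lower.

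In non-immune tissue 6 of the 21 members tested were called, in both directions, where 26.4% of all 6000 probes were. At an unadjusted p under 0.05 there were 8, against 40.4% of all probes. RTS0074538 was not among the 6000. Without injured region 4, 5 members were called in non-immune tissue, all but RTS0065321, and 0 in CD68 cells. Lower in peri-injured than in injured tissue were RTS0063348, with a log2 fold change of -1.85 (SE 0.28, adjusted p = 0.000126), RTS0064054 with -1.13 (SE 0.31, adjusted p = 0.0123), RTS0070809 with -0.82 (SE 0.20, adjusted p = 0.00607) and RTS0065321 with -0.76 (SE 0.27, adjusted p = 0.0447). Higher in peri-injured tissue were RTS0072005 with 0.98 (SE 0.22, adjusted p = 0.00319) and RTS0070338 with 0.76 (SE 0.20, adjusted p = 0.0107). Over all probes, 15.8% were called lower and 10.6% higher.

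For RTS0072005 the non-immune values were 237, 164, 121 and 174 CPM in peri-injured and 70.5, 91.4, 88.0, 46.6 and 82.3 in injured regions, which did not overlap. In healthy non-immune tissue it read 220.4, 257 and 262, so that only peri-injured region 6 reached the healthy range. RTS0065321 read 44.8, 57.1, 20.9 and 39.8 in peri-injured and 50.4, 54.3, 64.8, 44.5 and 58.2 in injured non-immune regions, and the classes overlapped. Its call was lost under all 5 other settings and in 8 of the 12 fits that left out a region, with adjusted p between 0.0510 and 0.309 where it was lost. RTS0064054 was lost without a filter on low counts (adjusted p = 0.0693), and RTS0070809 without a filter and with edgeR's own (adjusted p up to 0.121). RTS0063348, RTS0070338 and RTS0072005 were called in all 12 fits and under all 5 settings, with adjusted p of at most 0.0404.

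The peri-injured segments lay above all injured ones for 2 members in CD68 cells, RTS0065321 and RTS0066522 (13.5% of candidates), and for RTS0070338, RTS0072005 and RTS0076243 in non-immune tissue (20.7%). The injured segments lay above all peri-injured ones for 0 members in CD68 cells (3.32%) and for 2, RTS0063348 and RTS0070809, in non-immune tissue (4.43%). Over the tested members the median log2 fold change was 0.18 in CD68 cells and -0.14 in non-immune tissue, against -0.17 in each over all 6000 probes. With TMM scaling the split of called members in non-immune tissue was 3 higher and 3 lower, in place of 2 and 4. The same scaling turned the split over all probes from 634 higher and 951 lower to 868 higher and 413 lower, and moved their median from -0.17 to -0.03.

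Whether the peri-injured against injured difference was unlike in the compartments was tested as an interaction over all 24 segments. None of the 22 members was called by edgeR, where 0.817% of 6000 probes were, and 2 had an unadjusted p under 0.05, against 9.05% of all probes. DESeq2 called no member either, whereas limma called 0 of all 6000 probes and so adds nothing about the members. Both members were higher in peri-injured over injured regions in CD68 cells relative to non-immune tissue: RTS0065321 by 1.85 log2 units (SE 0.52, adjusted p = 0.0843) and RTS0063348 by 1.80 (SE 0.55, adjusted p = 0.138). The calls made in non-immune tissue are therefore not shown to be particular to it. In simulated counts the interaction test recovered 4% of 2-fold and 51% of 4-fold changes, again in probes drawn from all 6000 and not in the members.

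Over the 12 non-immune segments, the deviations from the class means of 2 members had a median Pearson correlation of 0.27 over 231 pairs, against 0.05 for pairs of candidates. In CD68 segments the medians were 0.01 and 0.02. The closest pair was RTS0068234 and RTS0072005 in non-immune tissue, at 0.93. These values share libraries and depth and are given without a test. Pairs were not matched for level. In non-immune tissue the median member was at 245, 124 and 104 CPM in healthy, peri-injured and injured regions. The median candidate was at 91.8, 106 and 89.7.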

How the data were processed

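Spatial RNA profiles (NanoString GeoMx, Mouse Whole Transcriptome kit) of 24 segments were used, and a reaction without template was not. Groups were taken from the labels. The values are raw counts per probe, deposited after the authors trimmed, aligned and deduplicated reads by molecular identifier (GeoMx NGS Pipeline 2.3.4 per the file headers, 2.3.5 per the metadata sheet). The files for non-immune region 6 and CD68 region 7 have the same layout and were read alike. A probe not listed was read as 0.

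The members and lists were chosen with earlier results of these data known. Pooled counts scaled to their total (CPM), with 20 added, were used for the choice. Named probes were the 12 leading members, those at the threshold, all called members and those extreme in level, compartment or single-segment share. Others were named after their values were seen.

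Peri-injured and injured regions were compared in edgeR 4.0.16 (R 4.3.3) by the quasi-likelihood test, with upper-quartile normalization, a term for region class, all classes in 1 fit, the 6000 probes with the highest mean share and Benjamini-Hochberg adjustment at 0.05. The study filtered on a limit of quantitation and fitted a linear mixed model. With 1 segment a region, no random effect could be fitted, and negative probes are not marked. Alternatives were TMM, DESeq2 1.42.0, limma 3.58.1, other filters, other pseudocounts and each region left out. Scripts were tested on simulated data. Regions pair the segments of a place. Their deviations correlated between -0.01 and 0.14 over 12 pairs (median 0.05). Levels were computed in Python 3.11.15 with pandas 2.3.3.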

Additional observations from a re-analysis of the deposited data

Results flagged for a closer look

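In 5 of the 96 groups of 4 or 5 segments examined (the 22 members, the share of counts they held together and the background, each by compartment and class), a segment stood far from the others, where chance gives about 1 in 20. All 5 were peri-injured groups. RTS0070809 read 182 CPM in CD68 cells of region 9, and 60.6 to 78.2 in the other peri-injured regions. RTS0065599 read 182 in CD68 cells of region 6, against 45.5 to 67.0. RTS0066522 read 273 in CD68 cells of region 12, against 89.4 to 96.2. RTS0071780 was at 0 in CD68 cells of region 9, against 90.9 to 101; a count of 0 in this segment allows a level of up to 137 CPM (3 counts, counting error only). RTS0071348 read 249 in non-immune tissue of region 6, against 109 to 116, and this value was also above its healthy segments. The causes were not tested.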

How the results depend on the processing

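The number of probes that met the rule depended on its floor and scaling. It was 22 as reported, 60 of 127 past the threshold with a minimum of 30 counts, 2 with 120 and 14 (13 of them members) with TMM scaling of the pools, and 13 to 23 with a region left out, lowest without peri-injured region 10. TMM moved the differences from healthy by -0.23 or -0.18 log2 units for peri-injured tissue (CD68, non-immune) and by 0.06 or 0.05 for injured tissue; all 88 differences stayed above 0, the lowest at 0.12. The median smallest difference of the 22 members was 0.49, and, for the same 22, 0.34 to 0.59 under the 6 other settings or 0.48 to 0.70 with a region left out. Members called between peri-injured and injured CD68 cells were 0, 2 without a filter, 2 with edgeR's filter and 0 to 1 with a region left out (RTS0070822, without peri-injured region 10). In non-immune tissue they were 4 to 6 throughout; RTS0076243 was called with TMM and with both other filters, and RTS0077174 without peri-injured region 6. For the interaction they were 0, also 0 with the replicate block that pairs the segments of a region, and 0 to 1 with a region left out (RTS0065321, without healthy region 3). Over all probes, the no-filter fit called 473 of 20175 in CD68, against 265 of 6000 in the main fit. In non-immune tissue DESeq2 called 977 and limma 810, against 1585, of the same 6000. The block gave 78 interaction calls against 49, and limma 0 with 497 at an unadjusted p under 0.05. The causes were not tested. In CD68 segments a member had few counts, at a median of 2 to 9.5 in a segment.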
